A study of Mus musculus with 8 samples.

Results

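The genes of the signal transducer and activator of transcription (STAT) family examined here, Stat2, Stat3, Stat4, Stat5a, Stat5b and Stat6, were followed in primary murine microglia with and without lipopolysaccharide (LPS), a component of the bacterial outer membrane that activates these cells. They were picked by name and located in the deposited count table by Ensembl identifier, using GENCODE vM21 symbols. All 6 were among the 52636 gene identifiers of the table, and 5 of the 6 were among the 13847 genes that passed the filter on low counts and were tested. Stat4 did not pass. All cells were wild-type (WT) C57BL/6 microglia by their labels (the methods list C57BL/6N pups), obtained from mixed glial cultures of neonatal brain by shaking them off the astrocyte layer. In both groups they were kept in DMEM with 10% fetal bovine serum and 10 ng/ml CSF-1, the growth factor that keeps microglia alive in culture. The LPS group received 5 µg/ml LPS and the vehicle group vehicle alone, both for 24 h, with 4 libraries (biological replicates 1 to 4) in each group. The sources do not say whether each replicate was a separate preparation of animals, so p-values measure the spread between these libraries.

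JAK-STAT signalling is a short route from a cytokine receptor to the nucleus. A bound receptor activates JAK kinases on its cytoplasmic tail, these phosphorylate STAT proteins on a tyrosine, and the STAT proteins pair, enter the nucleus and bind DNA at GAS elements or, in the case of Stat2 with Irf9 in the complex ISGF3, at interferon-stimulated response elements (ISREs). In microglia and other macrophages the pathway carries interferon, interleukin-6, interleukin-10, interleukin-4 and colony-stimulating factor signals, and several STAT genes are themselves interferon or cytokine targets. RNA counts measure the amount of STAT mRNA and carry no information on phosphorylation.

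The libraries held 20071921 to 30604447 counts. Values are given as CPM, counts scaled to a common library size by TMM, a method that assumes most genes do not change. The TMM factors did not overlap between groups, at 1.21 to 1.32 in vehicle and 0.701 to 0.833 in LPS libraries, so the direction of small changes depends on the scaling, as set out for each gene. LPS replicates 2 and 4 were the most alike of all pairs within a group, with a chi-square per degree of freedom of 6.76 over genes against 58.2 to 150 in the other LPS pairs. Vehicle replicates 2 and 4 were likewise the closest vehicle pair, at 11.4 against 37.1 to 70.1. All pairs still differed by more than counting error, and the libraries were kept as separate samples. The 10 microglia and macrophage markers summed to 10210 to 13336 CPM in vehicle and 5687 to 6229 CPM in LPS libraries, where 7 of the 10 were lower and 1 was higher. Of 10 lymphocyte markers 9, and of 6 neutrophil markers 5, had at most 3 counts in every library. Astrocyte markers summed to 20.5 to 50.6 CPM in vehicle libraries, to 124 CPM in LPS replicate 1 and to 41.8 to 49.8 CPM in the other LPS libraries, with 1 of the 8 called higher and 3 lower. Endothelial markers summed to 31.1 to 73.5 CPM in vehicle and 163 to 254 CPM in LPS libraries, although Cldn5, Tek and Esam were at 3 counts or fewer everywhere. Oligodendrocyte markers summed to 150 to 205 CPM in vehicle and 188 to 238 CPM in LPS libraries. Oligodendrocyte precursor markers summed to 21.9 to 119 and 3.03 to 34.5 CPM, and neuron markers to 3.52 to 10.9 and 2.47 to 7.66 CPM. Border macrophage markers summed to 576 to 1055 CPM in vehicle and 43.5 to 76.9 CPM in LPS libraries. Most of that was 1 gene, Mrc1, at 524 to 941 and 29.6 to 44.6 CPM. Of the 4 tested markers 1 was called higher and 3 lower. The part of these cells in the STAT values was not tested, and in bulk RNA fewer cells of a type and less RNA per cell cannot be told apart.

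The STAT genes of this set lie in 3 places of the mouse genome (GRCm38). Stat2 (ENSMUSG00000040033) is on the forward strand at chr10:128270559-128292849, and Stat6 (ENSMUSG00000002147) is on the same strand at chr10:127642986-127660957, 609601 bases away. The STAT genes on chromosome 11 form a cluster, with Stat5b (ENSMUSG00000020919) at chr11:100780731-100850724 on the reverse strand, Stat5a (ENSMUSG00000004043) at chr11:100859351-100885169 on the forward strand and Stat3 (ENSMUSG00000004040) at chr11:100885098-100939540 on the reverse strand. Stat5a and Stat5b lie 8626 bases apart, and exons of Stat5a and Stat3 overlap by 72 bases on opposite strands, 1.01% and 0.756% of their exonic bases. Without a stated use of strand, reads there cannot be told apart. Stat4 (ENSMUSG00000062939) is on chromosome 1, at chr1:51987148-52107189 on the forward strand.

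The promoters of Stat2 and Stat3 are shown because these were the members that changed most. Both sequences are RefSeq's (GRCm38.p6), the 250 bases before the annotated start read 5′ to 3′ on the strand of the gene, from chr10:128270248-128270497 (+) for Stat2 and chr11:100939541-100939790 (−) for Stat3. Capitals mark a match to the ISRE core, searched on both strands as GAAA, any 2 bases and GAAA again.
Stat2: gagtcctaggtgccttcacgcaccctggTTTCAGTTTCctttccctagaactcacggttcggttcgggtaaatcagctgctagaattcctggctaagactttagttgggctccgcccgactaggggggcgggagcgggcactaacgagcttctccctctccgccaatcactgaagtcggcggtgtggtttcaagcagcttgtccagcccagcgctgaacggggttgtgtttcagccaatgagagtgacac
Stat3: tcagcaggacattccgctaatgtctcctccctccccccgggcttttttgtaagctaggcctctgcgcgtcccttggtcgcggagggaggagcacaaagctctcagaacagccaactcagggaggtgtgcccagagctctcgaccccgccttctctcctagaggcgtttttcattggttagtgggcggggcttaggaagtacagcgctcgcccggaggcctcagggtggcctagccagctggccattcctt

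The match in Stat2 ends 213 bases before the start and reads on the reverse strand. The ISRE core was found in 2.98% of 32851 such windows over all genes of the reference table. All 6 STAT genes had an entry, with 9 windows in total, and the only other match was at the second start of Stat4, inside the gene, 88 bases before that start. That stretch of 60 bases, chr1:52008118-52008177 (+), is shown because Stat4 was the member hardly detected.
Stat4: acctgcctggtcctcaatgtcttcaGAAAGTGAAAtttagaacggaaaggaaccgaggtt

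The GAS letters TTCNNNGAA, which read alike on both strands, occurred in 0 of the 9 windows and in 7.02% of all windows. The kB motif occurred in 1 of the 9, at a second start of Stat5a whose window overlaps annotated exons, and in 3.90% of all windows. No binding was measured, and each match describes the letters alone.

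On the TMM scale, LPS-treated microglia held 3.96 times as much Stat2 and 4.63 times as much Stat3 mRNA as vehicle-treated microglia, and 1.82 times as much Stat5a. Stat6 was higher by a small margin, which turned to a deficit with total-count scaling, and no difference was detected in Stat5b, which that scaling put lower. With the quasi-likelihood test of edgeR, 4 of the 5 tested genes were higher and 0 were lower at an adjusted p under 0.05. Over all tested genes 64.1% were called, 30.3% higher and 33.8% lower. In these 4 genes, on the TMM scale, every LPS library lay above every vehicle library, as in 28.7% of all tested genes. Only the rises of Stat2 and Stat3 kept their direction and their call when libraries were scaled by their total counts, where 2 of the 5 were higher and 2 were lower, beside 14.4% and 61.1% of all tested genes. That scaling moved the median of all tested genes by -0.68 on the log2 scale, from -0.11 to -0.79, and changed the split of all calls from 4191 higher and 4686 lower to 1988 higher and 8457 lower. Relative to the median of all genes the STAT changes hardly depended on the scaling. This is bound to be so, since a new scaling moves all genes by nearly the same amount. Values relative to that median are therefore a description and no check on the direction of a change.

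**Figure D1:**
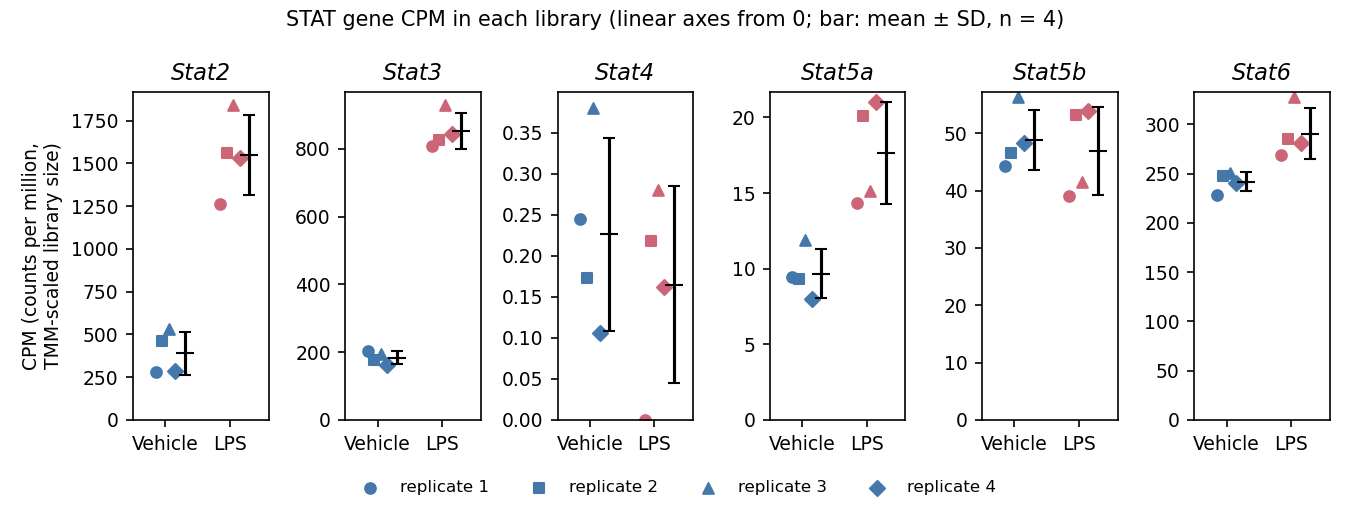
CPM of the 6 STAT genes in each of the 8 libraries, 1 panel per gene on its own linear axis from 0, with the mean and SD of each group (n = 4) beside the points. All LPS points of Stat2, Stat3, Stat5a and Stat6 lie above all vehicle points on this TMM scale, whereas those of Stat5b and Stat4 overlap, and Stat4 rests on 0 to 12 counts a library.

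Stat2 is the STAT that carries type I and type III interferon signals together with Irf9. It was measured at 282, 465, 530 and 287 CPM in vehicle replicates 1 to 4 and at 1264, 1559, 1839 and 1533 CPM in LPS replicates 1 to 4. The vehicle group split into a lower pair, replicates 1 and 4, and a higher pair, replicates 2 and 3, while replicate 3 was highest within both groups. The means were 391 ± 126 and 1549 ± 235 CPM (SD, n = 4), a log2 fold change of 1.99 (SE 0.24, edgeR adjusted p = 6.71e-05). The 4 same-numbered differences ranged from 1.75 to 2.42. Of all tested genes, 7.16% were called with a rise at least as large. With scaling by total counts the log2 fold change was 1.31 (adjusted p = 3.19e-04), and relative to the median of all genes it was 2.10 with either scaling.

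Stat3 transmits interleukin-6 and interleukin-10 family signals and is needed for the interleukin-10 arm that damps macrophage activation. Its level in vehicle replicates 1 to 4 was 203, 175, 196 and 161 CPM, and in LPS replicates 1 to 4 it was 810, 825, 929 and 843 CPM. Each group stayed within a narrow band, and the groups were far apart. The means of 184 ± 19.1 and 852 ± 53.5 CPM (SD, n = 4) gave a log2 fold change of 2.21 (SE 0.12, edgeR adjusted p = 6.61e-07). With total counts this was 1.53 (adjusted p = 1.20e-06), which was 2.32 relative to the median of all genes, the same as with TMM. A rise at least as large was called in 6.17% of all tested genes.

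Stat5a and Stat5b are closely related proteins that carry signals of colony-stimulating factors, interleukin-2 and growth hormone. Stat5a was at 9.45, 9.34, 11.9 and 7.99 CPM in vehicle replicates 1 to 4 and at 14.4, 20.1, 15.2 and 21.0 CPM in LPS replicates 1 to 4. The groups did not overlap, but LPS replicates 2 and 4 stood above 1 and 3. Its means of 9.67 ± 1.63 and 17.7 ± 3.37 CPM (SD, n = 4) gave a log2 fold change of 0.87 (SE 0.18, edgeR adjusted p = 0.00175). With total counts the value was 0.20 (adjusted p = 0.332) and the call was lost, while relative to the median of all genes it was 0.98 with TMM and 0.99 with total counts. Reads from the 72 exonic bases that overlap Stat3 may be in the Stat5a counts, and their part in this change was not tested.

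Stat5b was at 44.2, 46.6, 56.3 and 48.3 CPM in vehicle replicates 1 to 4 and at 39.1, 53.2, 41.6 and 53.9 CPM in LPS replicates 1 to 4. The groups overlapped, and 2 of the 4 same-numbered differences were positive and 2 negative. The means were 48.9 ± 5.25 and 46.9 ± 7.69 CPM (SD, n = 4), with a log2 fold change of -0.06 (SE 0.13, edgeR adjusted p = 0.721), but with total counts it was called lower at -0.73 (adjusted p = 0.00152). Relative to the median of all genes it was 0.05 and 0.06 with these scalings. As in Stat5a, LPS replicates 2 and 4 were above 1 and 3, an arrangement seen in 17.7% of all tested genes, and these are the pair of LPS libraries that were most alike.

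Stat6 carries interleukin-4 and interleukin-13 signals. Vehicle replicates 1 to 4 held 229, 247, 250 and 241 CPM, and LPS replicates 1 to 4 held 269, 285, 328 and 281 CPM. The LPS libraries were higher by a small margin, with replicate 3 the highest. The means of 242 ± 9.60 and 291 ± 25.8 CPM (SD, n = 4) gave a log2 fold change of 0.27 (SE 0.10, edgeR adjusted p = 0.0450), and each of the 4 same-numbered differences was positive, from 0.21 to 0.39. With the replicate number as a block the adjusted p was 0.0587, leaving out single libraries moved it between 0.0177 and 0.0763, and with total counts the direction turned, at -0.42 (adjusted p = 0.00141). The call was also lost without vehicle replicate 1, 2 or 4 or LPS replicate 2, 3 or 4, with no filter on low counts, with at least 10 counts in every library and with upper quartile scaling. Relative to the median of all genes Stat6 was 0.38 higher with TMM and 0.37 higher with total counts.

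**Figure D2:**
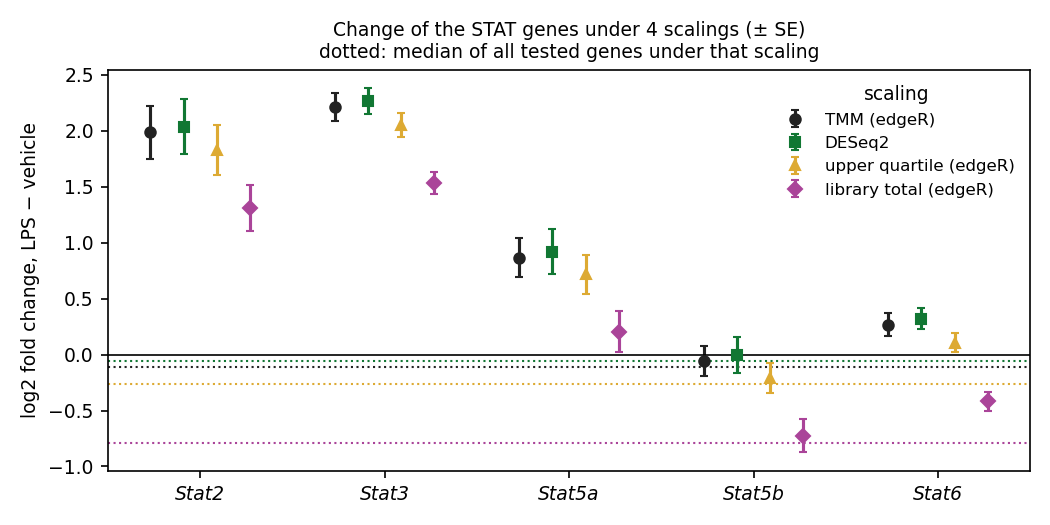
Log2 fold change of the 5 tested STAT genes (LPS minus vehicle, points with SE) under 4 scalings, with a dotted line at the median of all tested genes under each. Stat2 and Stat3 stay above 1.3 throughout, whereas Stat6 turns from 0.27 with TMM to -0.42 with library totals and Stat5b goes to -0.73, in step with the median of all genes, which goes from -0.11 to -0.79.

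Stat4, the STAT of interleukin-12 and interleukin-23 signals in lymphocytes, was close to the limit of detection. Vehicle replicates 1 to 4 held 7, 5, 12 and 3 counts and LPS replicates 1 to 4 held 0, 4, 6 and 3 counts. The sums were 27 counts in vehicle (95% exact Poisson interval 17.8 to 39.3) and 13 in LPS libraries (6.92 to 22.2), and these intervals cover counting error only. A count of 0 allows up to 3 counts (one-sided 95% limit), which in LPS replicate 1 is 0.180 CPM. Without the filter the log2 fold change was -0.45 (SE 0.74, edgeR adjusted p = 0.642), so no difference was detected and the error was wide. Of the 10 markers of lymphocytes, where Stat4 is best known, 9 had at most 3 counts in every library. Of its exonic bases 26.7% overlap Gm28177 on the same strand, so the assignment of reads there is uncertain.

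Ratios of 2 STAT genes within a library do not depend on the scaling, so all 15 pairs were compared by a two-sided exact permutation test over the 70 divisions of the 8 libraries, with p-values adjusted over the 15 pairs. The smallest p possible was 0.0286, reached by 9 pairs, which gave an adjusted p of 0.0476. Among them, Stat2 rose by 1.77 and Stat3 by 1.95 relative to Stat6 on the log2 scale, Stat2 by 1.17 and Stat3 by 1.35 relative to Stat5a, and Stat2 by 2.10 and Stat3 by 2.28 relative to Stat5b. Stat2 and Stat3 were not separated from each other, with a change of their log2 ratio of -0.18 (adjusted p = 0.520, exact permutation test, n = 4), and single libraries lay on both sides. The ratios with Stat4 rest on its 0 to 12 counts. Stat2 over Stat4 and Stat3 over Stat4 are nevertheless among the 9, and the shared adjusted p depends on how many pairs reach the smallest p. If same-numbered libraries are taken as pairs, the smallest two-sided exact p is 0.125 with 4 pairs. All 9 ratios had their 4 same-numbered differences in 1 direction. That is bound to hold where the groups do not overlap, so it adds nothing to the permutation test.

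The neighbours Stat5a and Stat5b moved apart. For each 100 counts of Stat5b there were 21.4, 20.0, 21.1 and 16.6 counts of Stat5a in vehicle replicates 1 to 4 and 36.7, 37.8, 36.5 and 39.0 in LPS replicates 1 to 4. The groups were far apart beside their spread, at 19.8 ± 2.22 and 37.5 ± 1.14 (SD, n = 4), and the log2 ratio rose by 0.93 (adjusted p = 0.0476, exact permutation test). This held in spite of the spread that both genes showed among the LPS libraries, where they were high and low together. The 50-base windows of Stat5a transcripts are shared with Stat5b in 8.21% of cases, and those of Stat5b with Stat5a in 11.0%, and since only uniquely aligned reads were counted, reads from those windows are in neither count. Stat5a also overlaps exons of Stat3, which rose by 2.21, in 72 bases on the opposite strand. How many Stat3 reads the Stat5a counts hold was not tested. The ratios of Stat5a and of Stat5b to Stat6 changed by 0.60 and -0.33, both with an adjusted p of 0.0714 (exact permutation test, n = 4), and passed the threshold only without LPS replicate 3 (0.73) and without LPS replicate 4 (-0.42), respectively.

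Levels of different genes were compared as RPKM, CPM per kilobase of the exons of the gene. In vehicle libraries Stat2 stood at 66.0 ± 21.3 and Stat6 at 54.9 ± 2.18 RPKM (SD, n = 4), and these neighbours in the order overlapped, with Stat2 the higher in 2 of 4 libraries. Stat3 followed at 19.3 ± 2.00, Stat5b at 8.82 ± 0.947, Stat5a at 1.36 ± 0.228 and Stat4 at 0.0584 RPKM, and no other neighbours overlapped. In LPS libraries the order was Stat2 at 261 ± 39.7, Stat3 at 89.4 ± 5.61, Stat6 at 66.0 ± 5.85, Stat5b at 8.48 ± 1.39, Stat5a at 2.47 ± 0.473 and Stat4 at 0.0426 RPKM, with no overlap between neighbours. Stat3 thus passed Stat6, in every one of the 4 LPS libraries.

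The summed level of the 6 genes was 150 ± 24.5 RPKM in vehicle and 428 ± 50.6 RPKM in LPS libraries (SD, n = 4). Within that sum the share of Stat2 went from 43.0% to 60.9% and that of Stat3 from 13.1% to 21.0%, while the share of Stat6 went from 37.1% to 15.5%, that of Stat5b from 5.93% to 2.00% and that of Stat5a from 0.904% to 0.583%. The interferon STAT and the interleukin-6 and interleukin-10 STAT together made up most of the STAT mRNA of this set after LPS, and the interleukin-4 STAT was the member whose share went down most in percentage points. These shares use the exonic length of the annotation, and the counts do not separate the isoforms of a gene.

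**Figure D3:**
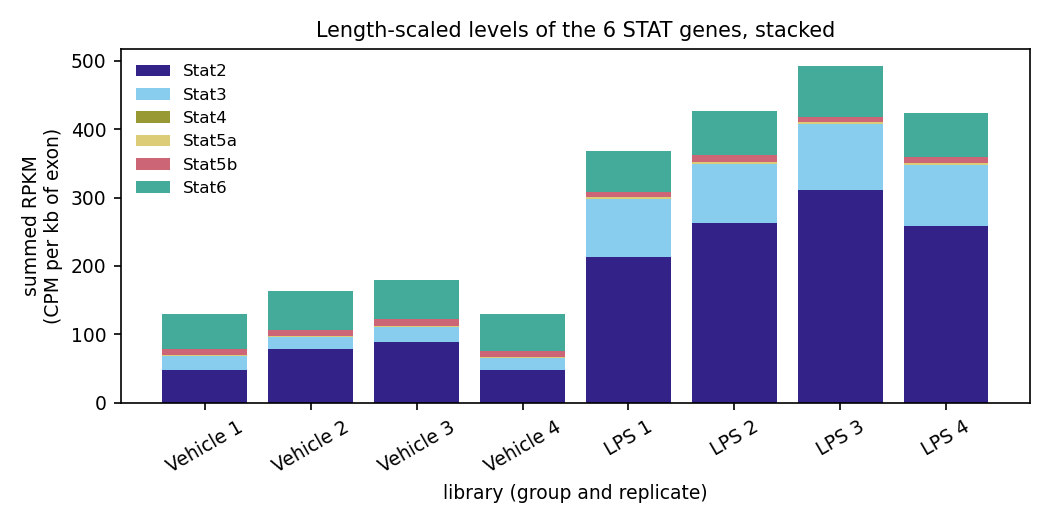
Stacked RPKM (CPM per kilobase of exon, TMM library size) of the 6 STAT genes in each library. The bars of the vehicle libraries sum to 130 to 179 RPKM and those of the LPS libraries to 368 to 492 RPKM, with Stat2 and Stat3 making up most of the difference and Stat4 too small to see.

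The genes around the STATs were described from lists of the pathway, by the number called and the median log2 fold change, which over all tested genes was -0.11. Of all tested genes 64.1% were called, 30.3% higher and 33.8% lower, and the counts of each list are to be read against these shares. With total counts the shares were 14.4% higher and 61.1% lower, and list counts with total counts are to be read against those. Of 23 STAT-activating ligands 12 passed the filter on low counts. Of these, 7 had at most 34 counts in any vehicle library and fewer than 10 in at least 1 library, and those that passed only through their LPS counts had to differ, so they are given by their values. The 5 with at least 10 counts in every library were called higher, where 30.3% of all tested genes were, with log2 fold changes of 1.41 for Osm, 3.00 for Il15, 3.29 for Ebi3, 7.08 for Il27 and 7.78 for Il10, the ligand of the Stat3-dependent damping arm. Il6, the ligand of the gp130 receptor that acts through Stat3, was at 0.121 ± 0.202 CPM in vehicle and 500 ± 242 CPM in LPS libraries (SD, n = 4, log2 fold change 11.97). Csf3, the granulocyte colony-stimulating factor, was at 0.362 ± 0.561 and 392 ± 191 CPM (10.07). Both passed the filter only through their LPS counts, so no p-value is given for them. Without vehicle replicate 1, which held 12 of the vehicle counts of Il6 and 34 of those of Csf3, the log2 fold changes were 14.16 and 12.05. The other 11 ligands did not pass the filter. Ifnb1, which signals through Stat2, averaged 0.178 CPM in vehicle and 0.338 CPM in LPS libraries, and the Stat6 ligands Il4 and Il13 had at most 1 count in any library. Il21, which acts through Stat3, had 0 counts in each vehicle library and 8, 11, 12 and 11 counts in LPS replicates 1 to 4. Il12a had 0 counts in each vehicle library and 9, 0, 5 and 0 counts in LPS replicates 1 to 4. With no filter Il21 and Il12a were called as well, but these calls rest on few counts present only after LPS, so no p-value is given.

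Receptor chains moved in both directions, with 15 of 28 higher and 8 lower (median 0.53). With total counts 10 were higher and 11 lower, beside 14.4% and 61.1% of all tested genes. Several chains passed the filter only through the group where they were high. With at least 10 counts in every library 21 were tested, 9 higher and 6 lower. Il15ra, the interleukin-15 receptor alpha chain, went from 4.74 ± 1.41 to 97.1 ± 39.9 CPM (SD, n = 4, log2 fold change 4.35, edgeR adjusted p = 3.57e-06). Il4ra, the receptor chain through which Stat6 is recruited, went from 155 ± 45.6 to 1876 ± 621 CPM (3.60, adjusted p = 8.35e-06), beside the marginal change of Stat6 itself. Both falls detailed here are chains that recruit Stat3. The 8 lower chains also include the interleukin-6 and interleukin-11 receptor alpha chains Il6ra (-0.58) and Il11ra1 (-1.22), and Ifngr1, Il12rb2, Csf2rb2 and Epor. Il12rb2 and Epor had at most 2 and 4 counts in an LPS library and passed the filter only through their vehicle counts. Il6st, which encodes gp130, went from 172 ± 45.1 to 45.6 ± 8.20 CPM (-1.92, adjusted p = 3.13e-05), and Lifr, its partner in the leukemia inhibitory factor receptor, from 25.7 ± 8.27 to 1.55 ± 0.622 CPM (-4.03, adjusted p = 7.92e-06). Il6 and its signalling chain thus moved in opposite directions. Other chains that recruit Stat3 were higher, such as Osmr, the oncostatin M receptor, which went from 0.307 ± 0.0742 to 2.19 ± 1.01 CPM (2.82). Osmr had at most 12 counts in a vehicle library and passed the filter only through its LPS counts.

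Of the 4 JAK kinases 3 were higher (median 0.71), and with total counts 1 was higher and 1 lower. Jak2, the kinase of the colony-stimulating factor and interferon gamma receptors, was at 67.4 ± 6.60 CPM in vehicle and 773 ± 103 CPM in LPS libraries (SD, n = 4, log2 fold change 3.52, edgeR adjusted p = 1.55e-07), a larger rise than any STAT gene of this set showed. Jak1 rose by 0.89 (adjusted p = 2.50e-04), but by 0.20 with total counts (adjusted p = 0.0689). Tyk2, which pairs with the type I interferon receptor, rose by 0.36 (adjusted p = 0.0155) but was lower by total counts, at -0.31 (adjusted p = 0.0288), and the call was lost with no filter (adjusted p = 0.0574) and with upper quartile scaling (adjusted p = 0.105). Jak3, the partner of the common gamma chain, was not called, at 0.54 (adjusted p = 0.100), with 27.6 CPM in LPS replicate 3 and 61.4 to 63.0 CPM in the other LPS libraries, and it was called without that library at 0.76 (adjusted p = 0.00360) and without vehicle replicate 3 at 0.79 (adjusted p = 0.0385).

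Among 22 negative regulators 9 were higher and 2 lower (median 0.16), a called share of 50.0% that lay below the 64.1% of all genes, and with total counts 5 and 11. Socs3, the inhibitor of gp130 signalling, rose the most, from 12.5 ± 5.44 to 1748 ± 175 CPM (SD, n = 4, log2 fold change 7.13, edgeR adjusted p = 4.01e-07). Usp18, which limits signalling of the type I interferon receptor and binds Stat2, went from 68.9 ± 28.5 to 1366 ± 300 CPM (4.31, adjusted p = 3.84e-06). Socs5 and Socs6 fell, Socs5 from 32.7 ± 3.70 to 19.2 ± 0.747 CPM (-0.77, adjusted p = 1.86e-04). Of the 4 PIAS genes, whose products inhibit STATs in the nucleus, 1 was called, Pias4.

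Of 12 nuclear partners 8 were higher and 1 lower (median 0.46), and with total counts 3 and 6. Irf9, the DNA-binding partner of Stat2, went from 83.1 ± 9.73 to 190 ± 28.5 CPM (SD, n = 4, log2 fold change 1.19, edgeR adjusted p = 5.08e-05), less than Stat2 did. Nmi, which binds STAT proteins, went from 25.4 ± 7.52 to 136 ± 31.0 CPM (2.42, adjusted p = 1.61e-05). Ndufa13, a mitochondrial subunit also known to bind Stat3, fell from 45.7 ± 4.88 to 32.0 ± 7.53 CPM (-0.51, adjusted p = 0.0255), a call lost without any single vehicle library or without LPS replicate 1 (adjusted p of 0.0183 to 0.117 over the 8 left-out libraries).

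**Figure D4:**
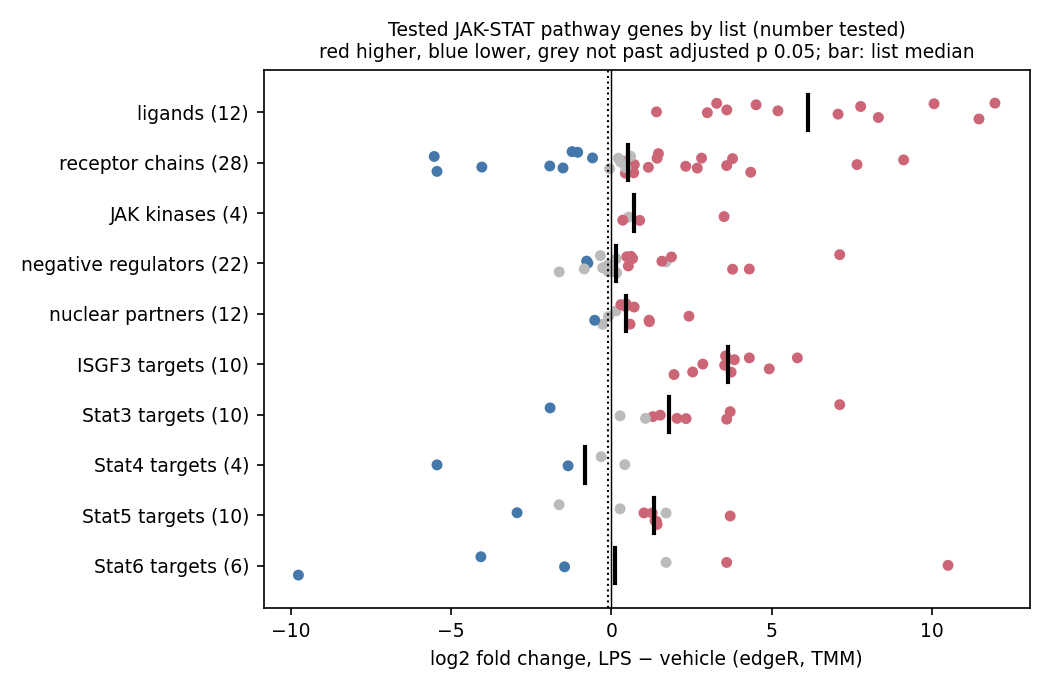
Log2 fold change of every tested gene in 10 lists of the JAK-STAT pathway, coloured by its edgeR call at an adjusted p of 0.05, with black bars at list medians and a dotted line at the median of all tested genes, -0.11. The 10 ISGF3 targets all lie to the right, as do the ligands, of which 7 of 12 had few vehicle counts, while receptor chains and Stat6 targets lie on both sides, and with total-count scaling the median of all tested genes shifts by -0.68 and the medians of receptor chains, negative regulators, nuclear partners and Stat6 targets turn negative.

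With total counts the medians of receptor chains (-0.12), negative regulators (-0.53), nuclear partners (-0.23) and Stat6 targets (-0.56) turned negative. Relative to the median of all genes the lists hardly moved, which again follows from how scaling works.

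Known targets of each STAT were counted in the same way, beside 30.3% of all tested genes called higher and 33.8% lower. With total counts these shares were 14.4% and 61.1%. All 10 ISGF3 targets were higher (median 3.65), with every scaling tried. Rsad2, the antiviral protein viperin, was at 278 ± 176 CPM in vehicle and 15557 ± 9069 CPM in LPS libraries (SD, n = 4, log2 fold change 5.81, edgeR adjusted p = 4.13e-05), and Oasl1 at 30.0 ± 22.3 and 915 ± 216 CPM (4.93, adjusted p = 3.48e-05, and 5.59 without vehicle replicate 3). Of 10 Stat3 targets 7 were higher and 1 lower (median 1.79), and with total counts 6 and 2, with Socs3 and the kinase Pim1 (27.3 ± 7.67 and 357 ± 21.3 CPM, 3.71, adjusted p = 5.49e-07) as the largest rises and Fos as the fall (125 ± 41.2 and 33.4 ± 4.29 CPM, -1.91, adjusted p = 6.49e-05).

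Of 10 Stat5 targets 6 were higher and 1 lower (median 1.32), and with total counts 4 and 3. Besides Pim1 the rise named is Ccnd2, which went from 26.8 ± 7.44 to 72.1 ± 35.6 CPM (SD, n = 4, log2 fold change 1.43, edgeR adjusted p = 0.00469, but 0.71 and 0.0663 with total counts), while the fall was Ccnd1, from 248 ± 85.1 to 32.4 ± 8.82 CPM (-2.94, adjusted p = 2.93e-05). These are sister D-type cyclins. Of 11 Stat6 targets 6 were tested, 2 higher and 3 lower (median 0.13). With at least 10 counts in every library 2 were tested, 1 higher and 1 lower. Arg1, arginase 1, was at 0.112 ± 0.0886 CPM in vehicle and 169 ± 131 CPM in LPS libraries (10.51, and 11.19 without vehicle replicate 1 and 9.89 without LPS replicate 3). It had at most 7 counts in a vehicle library and passed the filter only through its LPS counts, so it had to differ. Mrc1, the mannose receptor, went from 650 ± 197 to 38.9 ± 6.63 CPM (-4.07, adjusted p = 8.73e-07). Mrc1 is also a border macrophage marker, and the other falls were Ccl24 and Clec10a. Clec10a had 0 counts in every LPS library and passed the filter only through its vehicle counts. Of 8 Stat4 targets 4 were tested, 0 higher and 2 lower (median -0.83), among them the receptor chain Il12rb2 (-5.43). Il12rb2 had at most 2 counts in an LPS library and passed the filter only through its vehicle counts. With at least 10 counts in every library 3 were tested, 0 higher and 1 lower. Many target genes answer to other factors that LPS engages, and some stand in 2 lists.

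Within the vehicle group the ISGF3 targets shared the split of Stat2, which was noticed in the values. Vehicle replicates 2 and 3 lay above replicates 1 and 4 in all 10 ISGF3 targets, against 15.6% of all tested genes, in 1 of 10 Stat3, 2 of 4 Stat4, 3 of 10 Stat5 and 2 of 6 Stat6 targets. Stat6 and 6 of 12 nuclear partners, Irf9 and Nmi among them, showed the same arrangement. The mean of replicates 2 and 3 was 1.75 times that of replicates 1 and 4 for Stat2, and 1.63 to 3.45 times for the ISGF3 targets, with a median of 2.57. Rsad2, for example, was at 105, 355, 488 and 164 CPM in vehicle replicates 1 to 4. After LPS the targets differed in another way, with replicate 3 highest in 9 of 10, as in Stat2, and Irf7 the exception. That library was the highest in 40.8% of all tested genes. The log2 fold change of Stat2 was between 1.88 and 2.23 when any single library was left out.

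**Figure D5:**
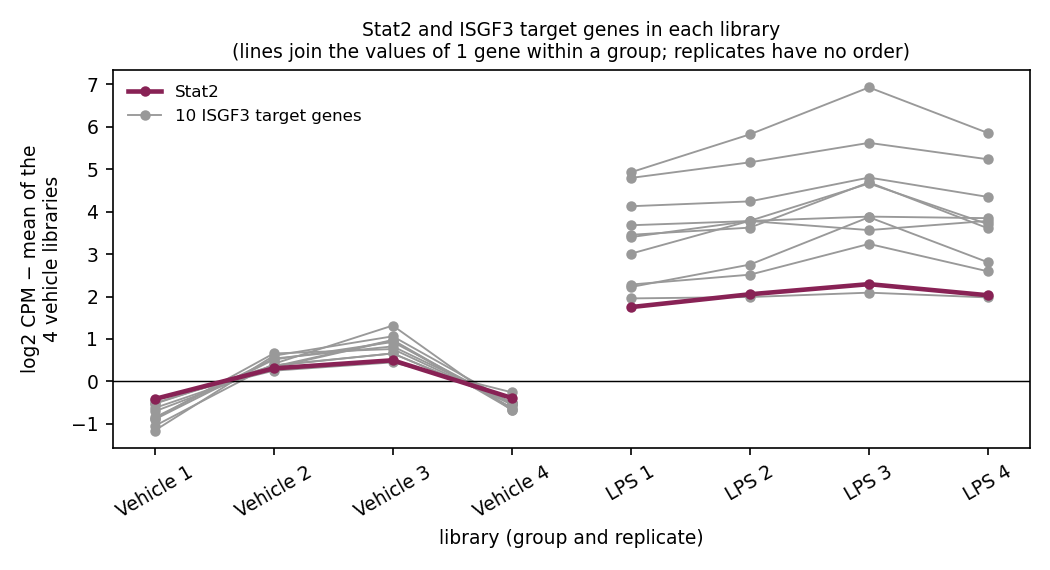
Log2 CPM of Stat2 and of 10 ISGF3 target genes in each library, relative to the mean of the 4 vehicle libraries of that gene. In vehicle all 11 genes lie above 0 in replicates 2 and 3 and below it in replicates 1 and 4, and in LPS libraries Stat2 lies between 1.75 and 2.29 with replicate 3 the highest.

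The genes whose pattern over the 8 libraries was nearest to that of each STAT were found by the root mean square difference of centred log2 CPM among 9763 genes. For Stat2 these were Slfn8 (0.103) and the ISGF3 target Oas1a (0.118), and Stat3 was farther away at 0.314. For Stat3 they were Whamm (0.0670) and Notch2 (0.0722), for Stat5a Pqlc2 (0.0748) and Acp2 (0.110), for Stat5b Ssna1 (0.0468) and Nubp2 (0.0700), and for Stat6 Edc3 (0.0373) was among the nearest. Edc3 was not called, at 0.21 on the log2 scale (edgeR adjusted p = 0.0808). Stat5a and Stat5b differed by 0.474, more than Stat5b and Stat6 did, at 0.251. The measure reads size and spread of the change together, and with 9763 candidates a near pattern is a description.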

How the data were processed

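RNA of microglia was sequenced in 8 libraries, 4 per group, as single-end 50-base reads. The authors aligned the reads to GRCm38 with GSNAP in the HTSeqGenie pipeline and deposited raw counts, one value per Ensembl gene and library from uniquely aligned reads, without normalization. The labels name a stranded TruSeq kit and a NovaSeq, the paper another TruSeq kit and a HiSeq. Use of the strand in counting and the annotation release are not given in the sources used here. Of 52636 identifiers 52403 had a symbol in GENCODE vM21.

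Changes were tested with edgeR 4.0.16 in R 4.3.3 (TMM, filterByExpr at its settings of 10 for the count and 15 for the total, two-sided quasi-likelihood test) over 13847 genes, with Benjamini-Hochberg adjustment over all of them and a threshold of 0.05. DESeq2 1.42.0 was an alternative. Tables, exact permutation tests (ratios with 0.5 added to each count) and figures were made with Python 3.11.15, numpy 2.4.6, pandas 2.3.3, scipy 1.17.1 and matplotlib 3.10.9. The fit was tested on simulated data with known changes. With 20071921 to 30604447 counts a library, 3 counts correspond to 0.095 to 0.180 CPM.

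The members and lists were chosen with earlier results of these data known. Named genes are the 6 members, every JAK kinase, Irf9, and in each list the 2 largest called rises and falls averaging 1 or more in log2 CPM and without overlap between groups. The 2 genes nearest in pattern to each tested member were added. Values of some single genes are not reported here. Genes named outside that rule were chosen after their values were seen. Same-numbered libraries deviated together from their group means, with r of 0.373, 0.196, 0.171 and 0.108 over 8010 genes, all over the 0.1 taken here to treat the numbers as pairs, so a fit with the replicate block is given where it changes a call of a STAT gene, and list counts with the block stand with the alternatives. Where the pairs come from is not stated. Other alternatives were no filter, 10 counts in every library, DESeq2 size factors, upper quartile scaling, an adjusted p under 0.01, another pseudocount of 1, another gene length, and leaving out each library. Scaling by total counts, the longest protein-coding transcript, and total counts or left-out libraries for the levels were added after seeing the data.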

Additional observations from a re-analysis of the deposited data

Results flagged for a closer look

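A library was flagged where its gap to the nearest of the other 3 in its group was above the 95% critical value of Dixon's ratio of gap to range. Of 78 groups of 4 libraries 8 were flagged, where chance alone flags about 1 in 20, and none belonged to a STAT gene. All values are CPM. In vehicle replicate 1, Il6 was at 0.420 (0 to 0.0634 in the others), Arg1 at 0.245 (0.0634 to 0.0710) and Ccnd1 at 121 (281 to 298). In LPS replicate 3, Jak3 was at 27.6 (61.4 to 63.0), Nmi at 183 (119 to 123) and Fos at 26.9 (35.4 to 35.6). Jak2 was at 57.5 in vehicle replicate 4 (69.8 to 71.6), and Nubp2 at 39.4 in vehicle replicate 3 (31.1 to 31.8).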

How the results depend on the processing

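Stat2 and Stat3 kept their direction and their call in every alternative run, and Stat5a in every one but total-count scaling, where it was 0.20 and not called. With total counts 2 STAT genes were higher and 2 lower, Stat5b at -0.73 and Stat6 at -0.42, a reversal that follows from the scaling, since the median of all genes moved by -0.68. Tyk2 (-0.31) and Edc3 (-0.48) turned with it. With upper quartile scaling the median of all genes moved by -0.16 and the share of higher calls went from 47.2% to 39.6%. The call of Stat6 was lost with no filter (0.23), with at least 10 counts in every library (0.21), with upper quartile scaling (0.11), with the replicate block (0.26, adjusted p = 0.0587), at an adjusted p under 0.01 (0.27, adjusted p = 0.0450), and without vehicle replicate 1, 2 or 4 or LPS replicate 2, 3 or 4, with log2 fold changes of 0.21 to 0.34 over all left-out libraries. The cause was not tested. DESeq2 gave 0.32 (adjusted p = 0.00150).

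Requiring at least 10 counts in every library left fewer genes to test, with 5 calls in place of 12 among ligands, 15 in place of 23 among receptor chains, 1 in place of 2 among Stat4 targets and 2 in place of 5 among Stat6 targets. With the replicate block, tested by sign flips of 4 pairs, no ratio of STAT genes could pass (exact p = 0.125, adjusted p = 0.170), although the values stayed at 2.67 for Stat2 over Stat4, 1.17 over Stat5a, 2.10 over Stat5b and 1.77 over Stat6, at 2.85, 1.35, 2.28 and 1.95 for Stat3 over the same genes, and at 0.93 for Stat5a over Stat5b. The block changed no call of a STAT gene other than that of Stat6, and gave 16 higher and 8 lower receptor chains, 10 and 4 negative regulators, 7 and 1 nuclear partners, 6 and 1 Stat3 targets, 7 and 1 Stat5 targets and 3 and 3 Stat6 targets. Leaving out single libraries gave values of -1.93 to -0.84 for Stat4 over Stat5a, 0.49 to 0.73 for Stat5a over Stat6 and -0.42 to -0.22 for Stat5b over Stat6. Without LPS replicate 3 the ratios Stat4 over Stat5a (-1.93) and Stat5a over Stat6 (0.73) passed the threshold, and without LPS replicate 4 that of Stat5b over Stat6 (-0.42).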
